A study of Sus scrofa with 2 samples.

Results

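The expression of 8 metallothionein and antioxidant genes (MT1A, SOD1, SOD2, CAT, GPX1, GPX4, HMOX1 and TXN) was described in ovarian tissue of conventional pigs and minipigs. The genes were grouped by function and chosen with earlier results of these arrays known, and MT1A was selected on its large difference between the arrays. A gene was found on the array where a probe carried a RefSeq transcript of that gene in the pig annotation. By this match 6 of the 8 genes had probes, 25 in all, which places 6 among the 2363 genes with a measured difference or a bound. SOD1 and SOD2 were not named by any probe and were not analysed here, and 7823 probes carry Ensembl transcript identifiers that were not matched to genes, so a probe for either may be among them.

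Metallothioneins are small cysteine-rich proteins that bind zinc and copper and can scavenge oxidants, and their genes are induced by metals, glucocorticoids and stress. Antioxidant enzymes act in sequence, with superoxide dismutases turning superoxide into hydrogen peroxide, and catalase, glutathione peroxidases and peroxiredoxins removing the peroxide. Ovarian cells that make steroids generate oxidants in the cytochrome P450 reactions of their mitochondria, and antioxidant enzymes are abundant in follicles and in corpora lutea.

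One array was hybridised for each breed. The labels give the tissue as ovary, and per the study's methods it was taken on day 15 of the estrous cycle and its luteal tissue was excised. The methods name 5 Yorkshire sows and 5 Midget minipigs, all 10 months old, and do not say whether an array holds RNA of 1 animal or of several. Since each breed has 1 array, no difference could be set against a spread between replicates and nothing was tested. The values describe these arrays, which lay on 1 slide and whose number sets the precision. In whole tissue, fewer cells of a type and less RNA per cell cannot be told apart.

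The scanner files label the arrays as minipig and pig (the conventional breed), and the deposited table of log2 values, in which 5617 probes are listed, assigns the same intensities to the opposite breeds. The labels of the scanner files are used for all values, so every direction turns over if the table is right. The study's own comparison counts as lower in conventional pigs as many features as the labels of the table make higher, so its direction runs the way of the scanner files, and on that basis their labels are the likelier ones. Levels are log2 intensities relative to the 75th percentile of each array, and differences are pig minus minipig. No probe was saturated, and the median probe of the array had a log2 difference of -0.12. Over 42 probes printed several times, the SD of a difference between single spots was 0.25 on the log2 scale, and the scanner software gave each intensity of the 25 probes an error of 10.0% to 10.04%, which comes to 0.20 on the log2 scale for a difference. The software error was nearly the same at intensities from 289 to 58222, so it does not show a spread measured for each probe. Neither value covers the animals.

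All 25 probes carried the flag for being well above background on each array. With the median of its probes as the value of a gene, 4 of the 6 genes were 2-fold or more higher on the pig array (MT1A, GPX1, CAT and GPX4) and 0 were 2-fold or more higher on the minipig array. Among all 2363 genes these shares were 11.7% and 7.96%, from 277 and 188 genes, and median centring moved the numbers to 364 and 140. MT1A was chosen for its difference, and without it 3 of 5 genes were 2-fold or more higher on the pig array. MT1A had a log2 difference of 4.63, or 24.8-fold, GPX1 of 2.50, CAT of 1.76 and GPX4 of 1.71. HMOX1 lay on the other side at -0.81, and TXN was at -0.10, which became 0.05 after median centring.

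**Figure D1:**
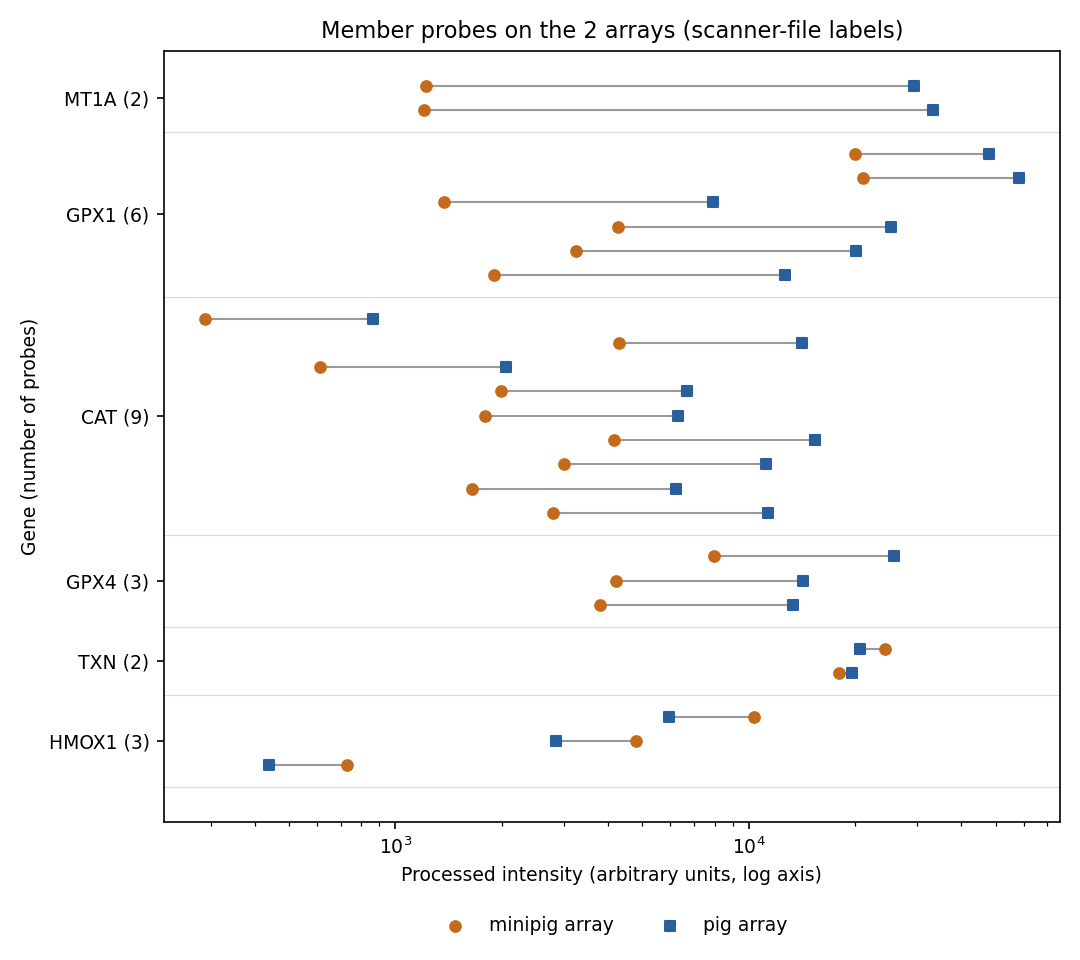
Processed intensity (arbitrary units, log axis) of the 25 probes of 6 genes on the minipig array (circles) and the pig array (squares), with a line joining the 2 values of a probe; there is 1 array per breed and no error bar. All 20 probes of MT1A, GPX1, CAT and GPX4 were brighter on the pig array, all 3 of HMOX1 were brighter on the minipig array, and the 2 of TXN went opposite ways.

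Counted by probe, 20 of the 25 were 2-fold or more brighter on the pig array and 0 on the minipig array. Of the 38883 probes that gave a difference or a bound, 7.48% were past 2-fold toward the pig array and 8.94% toward the minipig array. This balance of 2909 to 3475 probes turned over to 3840 and 2579 with median centring and to 2020 and 1411 with normexp correction. Without the 2 probes of MT1A, 18 of 23 member probes were 2-fold or more brighter on the pig array. The probes of a gene share their target, so they repeat the measurement of that gene and are not replicates of a breed. The spread between probes was 0.14 (SD, 2 probes) for MT1A, 0.13 (9 probes) for CAT, 0.07 (3 probes) for GPX4 and 0.03 (3 probes) for HMOX1. The median of this SD over 1220 genes with several probes was 0.20, and GPX1, at 0.66 (6 probes), and TXN, at 0.25 (2 probes), lay above it.

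MT1A encodes a metallothionein of the widely expressed type. Its first probe had an intensity of 1224 on the minipig array and 29420 on the pig array, and its second had 1206 and 33140. Both probes were thus far brighter on the pig array, by 23.2-fold and 26.5-fold. They lie at rows 36 and 312 of the array, and their log2 differences of 4.53 and 4.73 were closer to each other than the SD between spots. Among the 36659 probes detected above background on each array, 8 exceeded the difference of the first and 6 that of the second. This position chose the gene and is a description only. Between the alternative ways of processing the same intensities, the value ran from 4.39 with quantile normalization to 4.78 with median centring.

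In the RefSeq annotation MT1A lies in a cluster of metallothionein genes with MT1D, MT-2B, MT3 and MT4 nearby. MT3, a form first known from brain, was the only one of these 4 neighbours that a probe named. Its single probe had an intensity of 9905 on the minipig array and 7455 on the pig array, a log2 difference of -0.46. The steep difference of MT1A was thus not seen at the other metallothionein probe. Metallothionein transcripts are alike in sequence, and binding of other family members by the MT1A probes or the MT3 probe was not tested. That leaves the values of both genes uncertain, and with them the contrast between MT1A and MT3.

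The genes closest to MT1A in their levels on the 2 arrays were FABP3, ACSL4 and MSMO1. Closeness was the Euclidean distance of the log2 levels over 2 arrays, among 1159 genes with at least 2 probes, all well above background, and the distances were 0.65, 1.18 and 1.35. FABP3, a fatty acid binding protein, had a level of 1.92 on the minipig array and 5.74 on the pig array, against 1.30 and 5.93 for MT1A. ACSL4, which activates long-chain fatty acids, had levels of 2.32 and 5.33. MSMO1, an enzyme of cholesterol synthesis, had levels of 0.95 and 4.62. Their log2 differences were 3.82, 3.02 and 3.82, smaller than the 4.63 of MT1A. Levels of different probes are not comparable as amounts of transcript. The genes were picked by their levels on these 2 arrays, so the shared direction follows from that choice.

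**Figure D2:**
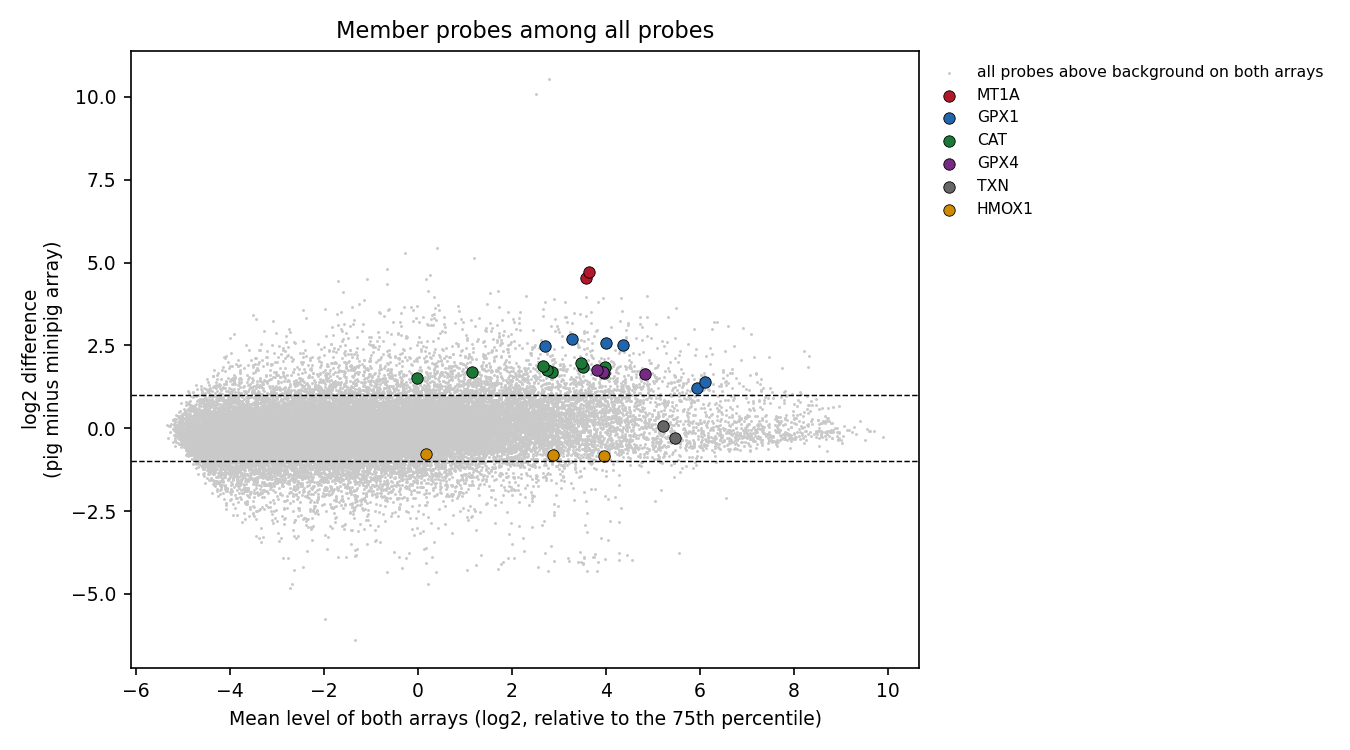
Log2 difference (pig minus minipig array) against the mean log2 level of both arrays for all 36659 probes well above background on both (grey), with the probes of 6 genes in colour and the 2-fold limits dashed. The 2 probes of MT1A lie near the upper edge, CAT and GPX4 form narrow bands, GPX1 falls into 2 groups, and HMOX1 lies between the lower limit and 0.

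GPX1 encodes the abundant cytosolic glutathione peroxidase, a selenium enzyme that reduces hydrogen peroxide with glutathione. All 6 probes were brighter on the pig array, but their size fell into 2 groups. The 4 dimmer probes had intensities of 1371 to 4265 on the minipig array and 7935 to 25293 on the pig array, which gave folds of 5.58 to 6.43. The 2 brighter probes had 20022 and 21114 on the minipig array and 48005 and 58222 on the pig array, with folds of 2.31 and 2.66. With the brightest probe in place of the median, the log2 difference of GPX1 was 1.41 in place of 2.50. What sets the 2 groups of probes apart was not tested, and the grouping was made after the values were seen.

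CAT encodes catalase, the peroxisomal enzyme that breaks hydrogen peroxide down to water and oxygen. Its 9 probes covered intensities from 289 to 4306 on the minipig array and from 861 to 15395 on the pig array. Every one of them was brighter on the pig array, by 2.88-fold to 3.92-fold, and the dimmest probe gave the smallest difference, 1.52 on the log2 scale. The largest was 1.97. Across probes that span more than 10-fold in brightness, the differences thus stayed within 0.45 of each other.

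GPX4 encodes the glutathione peroxidase that reduces lipid peroxides in membranes and protects cells from ferroptosis. Its 3 probes had intensities of 3784, 4214 and 7977 on the minipig array, and 13350, 14254 and 25708 on the pig array in the same order. The folds were 3.40, 3.26 and 3.11, so the 3 probes differed by less than the SD between spots. The gene values of GPX4 and CAT, 1.71 and 1.76, also differed by less than that SD.

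HMOX1 encodes heme oxygenase 1, which degrades heme to biliverdin, iron and carbon monoxide and is induced by oxidative stress. Its 3 probes were all dimmer on the pig array, with 440 against 730, 2840 against 4809 and 5947 against 10338. The folds toward the minipig array were 1.72, 1.76 and 1.80, which are alike across probes and short of 2-fold. The log2 difference of -0.81 exceeded the SD between spots, and it passed 2-fold under quantile normalization, at -1.10, and loess normalization, at -1.03.

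TXN encodes thioredoxin, a small protein that reduces disulfides and serves the peroxiredoxins. The first probe had an intensity of 24237 on the minipig array and 20677 on the pig array, and the second had 17971 and 19645. The log2 differences were -0.28 and 0.08, and the probes disagreed in sign. No difference beyond the spread of its own probes was seen for TXN.

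**Figure D3:**
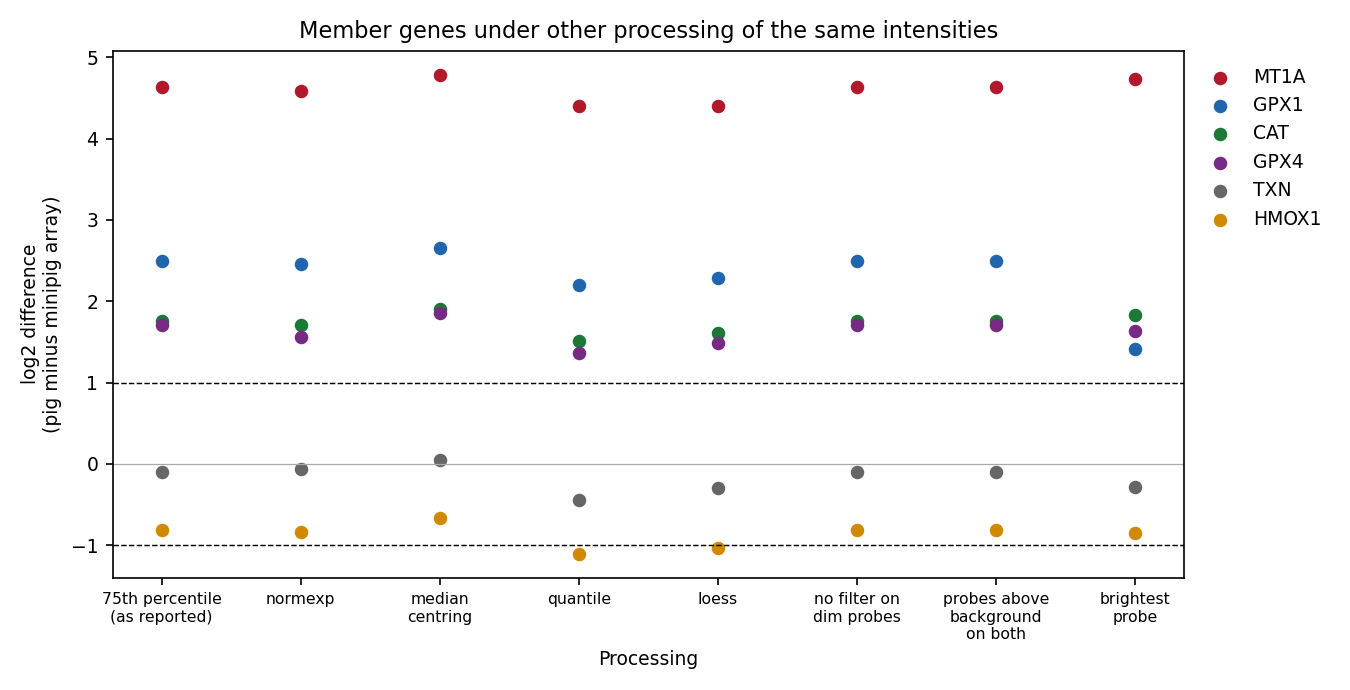
Log2 difference (pig minus minipig array) of 6 genes as reported and under 7 other ways of processing the scanner intensities, 1 point per gene and setting, with the 2-fold limits dashed. MT1A, GPX1, CAT and GPX4 stay above the upper limit in each, GPX1 drops to 1.41 with the brightest probe, and HMOX1 crosses the lower limit with quantile and loess normalization.

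Other genes of the same systems were taken from 5 lists of antioxidant and metal handling genes, which name 114 genes with the members. Probes gave a value for 42 of them, too few to stand for the pathways. Leaving the members out, 36 of 106 genes had a value, of which 13 were 2-fold or more higher on the pig array and 1 was 2-fold or more higher on the minipig array. These 13 make 36.1%, beside 11.7% of all genes. The median log2 difference of the 36 genes was 0.61, beside 0.04 for all genes. The lists and members were chosen with results of these arrays known, so this describes the genes listed and carries no test.

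Among enzymes that remove superoxide and peroxide, 10 of 19 genes had a value, and the median was 1.47. On the pig array 6 were 2-fold or more higher (60.0%, beside 11.7% of all genes), and 0 were so on the minipig array. Beside GPX1, CAT and GPX4 the 6 were GPX2, PRDX6 and GPX3. GPX2, a glutathione peroxidase known from the gut, had an intensity of 65.6 on the minipig array and 381 on the pig array, a log2 difference of 2.48 from 1 dim probe, which became 1.65 after normexp correction. PRDX6, a peroxiredoxin that also reduces phospholipid peroxides, had 6 probes with log2 differences from 1.87 to 2.39 and a median of 2.03. GPX3, the secreted plasma form, was at 1.23. SOD3, the extracellular superoxide dismutase, was at 0.11 from 1 probe, with intensities of 29.1 and 32.5. GPX6 was at -0.35, and its 2 probes gave -0.73 and 0.03. Of the superoxide dismutases, then, only the extracellular form was named by a probe, and its 2 intensities were close to each other.

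Glutathione genes went both ways. Of 31 listed genes 6 had a value, of which 3 were higher by 2-fold or more on the pig array and 1 on the minipig array. Over all genes these shares were 11.7% and 7.96%. GGT1, the cell surface enzyme that starts the breakdown of extracellular glutathione, had an intensity of 550.04 on the minipig array and 5448 on the pig array, a log2 difference of 3.26. GLRX, a glutaredoxin that removes glutathione from proteins, was at 2.59, and its 2 probes gave 2.53 and 2.66. GSTO1, an omega class glutathione transferase, was at 1.96 from 1 probe. GSTA1, an alpha class glutathione transferase, went the other way: its single probe had 96081 on the minipig array and 23171 on the pig array, a log2 difference of -2.10. Other alpha class transferases are near-identical to GSTA1, and whether its probe binds them was not tested. MGST1, a membrane-bound glutathione transferase, was at 0.14 and changed sign under quantile and loess normalization.

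In the thioredoxin and sulfoxide repair list, 10 of 20 genes had a value, and the median was 0.98. On the pig array 5 were 2-fold or more higher, and on the minipig array 0 were so. Over all genes these shares were 11.7% and 7.96%. The 5 were TXNRD1, SELENOT, MSRB1, SELENOS and SELENOM. SELENOM and SELENOS, both of the endoplasmic reticulum, were at 2.14 and 2.10 from 1 probe each. MSRB1, which reduces oxidised methionine, was at 1.73, SELENOT at 1.35 and TXNRD1, the cytosolic thioredoxin reductase, at 1.12. The 5 probes of TXNRD1 ran from 0.52 to 1.59, on both sides of the 2-fold limit. Under 2-fold were SELENOP, the selenium carrier of plasma, at 0.85, TXNRD2, the mitochondrial thioredoxin reductase, at 0.72 and SELENOK at 0.71. TXNIP, which binds and inhibits thioredoxin, was at -0.59, with 7 probes from -0.65 to -0.47.

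**Figure D4:**
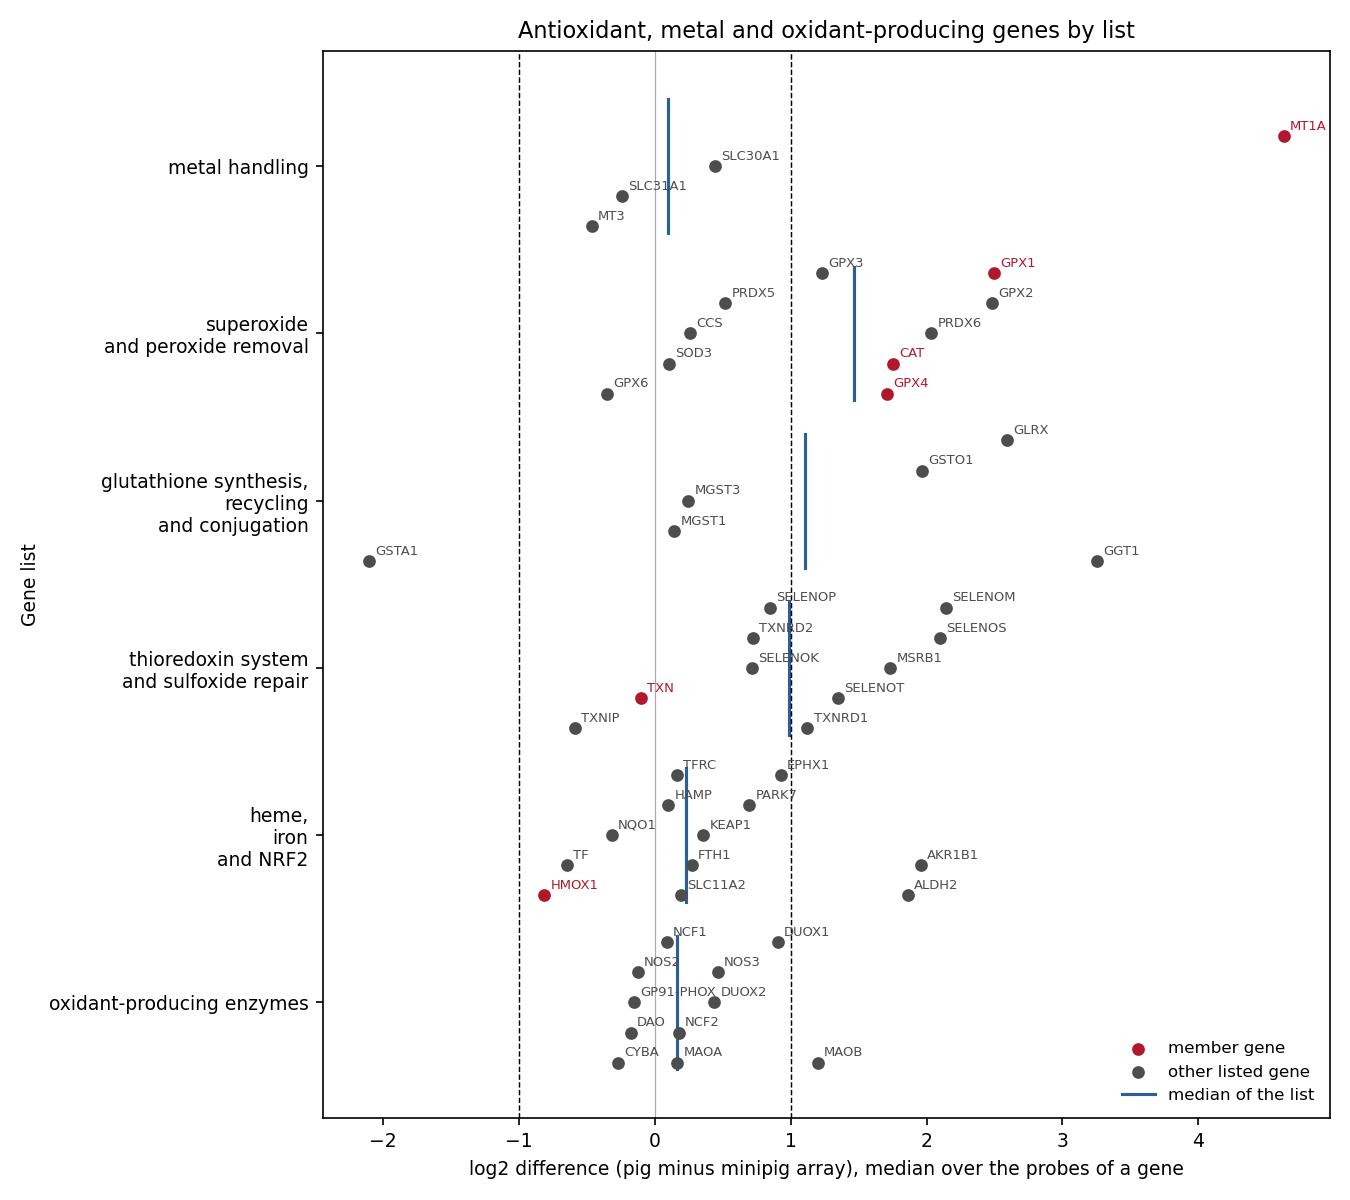
Log2 difference (pig minus minipig array) of each gene with a value in 6 lists, taken as the median over its probes, with members in red, other genes in grey, the median of each list as a blue bar and the 2-fold limits dashed. Genes of peroxide removal lie mostly above the upper limit, while oxidant-producing genes lie between the limits except MAOB at 1.20, and GSTA1 lies at -2.10.

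The list of heme, iron and NRF2 genes, NRF2 being the factor that switches on many antioxidant genes, had values for 12 of 26 genes and a median of 0.23. Higher by 2-fold or more on the pig array were 2 genes, AKR1B1, an aldose reductase, at 1.96 and ALDH2, the mitochondrial aldehyde dehydrogenase, at 1.86. These 2 make 16.7%, beside 11.7% of all genes. The classical NRF2 target NQO1 was at -0.32 and TF, which encodes transferrin, at -0.65. FTH1, the ferritin heavy chain, was at 0.27 over 10 probes that ran from 0.08 to 0.41. HMOX1 was thus the lowest gene of its list.

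Metal handling genes had values for 4 of 18, with MT1A alone past 2-fold. SLC30A1, a zinc exporter that is induced by zinc through the same factor as the metallothioneins, was at 0.44, and its 2 probes gave 0.43 and 0.46. SLC31A1, a copper importer, was at -0.24 from 1 dim probe and changed sign under quantile and loess normalization. The zinc exporter differed by 1.36-fold, and MT1A, which was chosen for its difference, by 24.8-fold. No cause of either difference was tested.

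Enzymes that produce oxidants were listed for comparison. Of 22 genes 11 had a value, and the median was 0.17. On the pig array 1 was 2-fold or more higher, which makes 9.09%, near the 11.7% of all genes. On the minipig array 0 were so, beside 7.96% of all genes. MAOB, a monoamine oxidase of the outer mitochondrial membrane, was the gene past 2-fold, at 1.20. DUOX1, a dual oxidase, was at 0.90, and its 3 probes ran from 0.79 to 2.21. Its value passed 2-fold under median centring, quantile and loess normalization and with the brightest probe. The phagocyte oxidase subunits CYBA and GP91-PHOX (CYBB) were at -0.27 and -0.16. Oxidant-producing genes as listed were thus closer to 0 than those of peroxide removal, a difference that was not tested.

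Marker lists of cell types went in both directions between the arrays, in tissue that the methods describe as freed of luteal tissue. All 12 luteal and steroidogenic markers with a value, of 14 listed, were higher on the pig array. At least 2-fold higher were 9 of the 12, beside 11.7% of all genes. The intensities of the 12 summed to 114082 (minipig) and 425703 (pig). None of the 12 was at background on either array. STAR, which carries cholesterol into mitochondria, was at 3.07 and HSD3B1, which makes progesterone, at 3.11. The 3 markers under 2-fold were OXT at 0.33, RLN2 at 0.45 and FDX1 at 0.63. Granulosa markers, 8 of 12 with a value, went the other way with a median of -1.40, 7 of them lower on the pig array, with sums of 67581 (minipig) and 31482 (pig). For comparison, the 6 genes described here summed to 37081 and 97965, and to 35866 and 66685 without MT1A, which was chosen for its difference. All sums here add intensities unscaled between the arrays, weigh bright probes most and are not amounts of transcript. Macrophage markers, 4 of 10 with a value, had a median of 0.29 and sums of 3110 and 3992. The medians were 0.60 for 5 of 9 endothelial markers, -0.76 for 4 of 8 smooth muscle markers and -1.13 for 6 of 9 oocyte markers. Of 7 theca markers 6 had a value, and 3 were higher on the pig array (STAR, HSD3B1 and CYP11A1, which the luteal list also holds). The 3 higher on the minipig array were INSL3 at -3.76 from 1 probe, CYP17A1 at -1.74 and LHCGR at -0.62. Of the red cell markers, which matter here because red cells are rich in catalase and peroxidases, HBE1 alone of 10 had a probe. Its intensities were 160 (minipig) and 168 (pig), a log2 difference of 0.02. No probe named the globin genes HBA and HBB, so the red cell content of the tissue was not measured. The part of any cell type in the differences of the antioxidant genes was not tested.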

How the data were processed

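Ovarian RNA was hybridised to 1 single-colour (Cy3) porcine Agilent 44 K array per breed. The authors deposited scanner output of Agilent Feature Extraction 10.7.3.1, whose processed intensity is free of background and spatial trends but unscaled between arrays. A second deposited file gives log2 values for 5617 probes. Its minipig column is the log2 intensity of the array labelled pig less a fixed amount (largest departure 7.46e-07), and the reverse. The column medians of the table are -0.93 and -0.66. Breeds follow the scanner labels, and the study's counts of lower and higher genes run their way.

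Control and outlier spots were dropped, repeated spots averaged in log2, and the 75th percentile of each array subtracted. Median intensities were 127 (minipig) and 119 (pig), and 88.1% and 85.2% of 43597 probes were well above background. A probe above background on 1 array only was given a bound, against the lowest level above background on the other. Genes took the median of their probes. Unversioned accessions matched the RefSeq table of Sscrofa11.1 for 5577 probes and 2459 genes, without coordinates or sequences. "Called" means 2-fold or more.

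Genes named beside the members were the 2 highest and 2 lowest of each list whose probes were all above background on both arrays, the 3 genes nearest MT1A, and STAR and HSD3B1. GPX3, GSTO1, TXNRD1, TXNRD2, SELENOT, SELENOP, MSRB1, FTH1, CYP11A1 and HBE1 were added after their values were seen. So were INSL3, CYP17A1 and LHCGR of the theca markers and OXT, RLN2 and FDX1 of the luteal markers. Members, lists and markers were chosen with earlier results of these arrays known. Steps were tested on simulated data. Software was Python 3.11.15, numpy 2.4.6, pandas 2.3.3, matplotlib 3.10.9, R 4.3.3 and limma 3.58.1.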

Additional observations from a re-analysis of the deposited data

How the results depend on the processing

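The alternatives were normexp correction (offset 50, on median spot signals), median centring, quantile and loess normalization (span 0.3), dim probes unfiltered, probes above background on both arrays only, the brightest probe, and the deposited log2 table. The number of member genes 2-fold or more higher on the pig array was 4 of 6 in each of the first 7. On the minipig array it was 0, or 1 (HMOX1) with quantile and loess normalization. For the 5 lists these numbers were 15 to 18 and 1 or 2. The median over all probes moved by 0.15 with median centring, 0.11 with quantile and 0.11 with loess normalization. Of genes past 2-fold, the pig array was the higher one for 59.6%, and for 72.2% after median centring (364 against 140 genes), while normexp left 207 and 98. For probes that share was 45.6%, and 59.8% after median centring and 58.9% with normexp. Member directions held in the first 7 except for TXN under median centring. The deposited table lists all 20 probes of MT1A, GPX1, CAT and GPX4 and none of HMOX1 and TXN. By its labels the breeds are exchanged and the differences become -4.63 for MT1A, -2.49 for GPX1, -1.75 for CAT, -1.70 for GPX4, -3.81 for FABP3, -3.02 for ACSL4, -3.82 for MSMO1, -2.48 for GPX2, -2.03 for PRDX6, -3.25 for GGT1, -2.59 for GLRX, 2.11 for GSTA1, -2.09 for SELENOS, -2.14 for SELENOM, -1.95 for AKR1B1, -1.86 for ALDH2, -1.20 for MAOB, -3.07 for STAR and -3.11 for HSD3B1. Of DUOX1 the table lists 1 of 3 probes, at -2.20 (0.90 over all 3), and of SELENOK 1 of 5, at 2.01-fold higher under its minipig label (0.71 on the log2 scale over all 5). No paired analysis was possible because each breed has 1 array. Dim probes such as those of SOD3, GPX2 and SLC31A1 are limited by background.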
